A study of Mus musculus with 3 samples.

Results

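Nuclear genes for the subunits of oxidative phosphorylation (OXPHOS) were measured cell by cell in the mouse forelimb bud. They were taken by symbol: the Nduf families A, B, C, S and V of complex I, Sdha to Sdhd of complex II, the Uqcr genes of complex III, Cox4 to Cox8 of complex IV and the Atp5 genes of complex V, with the assembly factors named Ndufaf left out. The rule used names only and no measured value. It found 83 of the 15122 genes of the matrix: 39 for complex I, 4 for complex II, 8 for complex III, 15 for complex IV and 17 for complex V. The 13 protein-coding transcripts of the mitochondrial genome (mt- mRNAs) were set beside them.

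In oxidative phosphorylation, complexes I and II pass electrons from NADH and succinate to ubiquinone, complex III hands them to cytochrome c, complex IV reduces oxygen, and complex V uses the proton gradient to make ATP. Most subunits are encoded in the nucleus and imported. The mitochondrial genome encodes core subunits of complexes I, III, IV and V, so that both genomes must be expressed to build these complexes, while complex II is wholly nuclear. Several complex IV subunits exist as a ubiquitous isoform and as alternatives known from muscle, testis or low oxygen.

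The cells came from forelimb buds of wild-type embryos, digested with trypsin and captured in droplets with 10x Genomics 3′ chemistry, in which each captured molecule counts as 1 unique molecular identifier (UMI). Each group was 1 library. The c57bl6.J strain was sampled at stage E9.5 (library B6_E9.5) and again at E10.5 (library B6_E10.5), and the strain 129S6.sv at E9.5 (library 129_E9.5). How many embryos went into a library is not stated. The stage ratio divides B6_E10.5 by B6_E9.5 and the strain ratio divides 129_E9.5 by the same B6_E9.5, so neither has replicates or a test. Where 3 values stand together without names, they follow the order B6_E9.5, B6_E10.5, 129_E9.5.

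The libraries held 12773, 18957 and 12220 cells, and the authors' 5 clusters sort them into mesenchyme, ectoderm, muscle progenitors, endothelium and erythroid cells. The ectoderm markers summed to 2477 to 2676 UMIs per 1000000 of a class's UMIs (CPM) in the ectoderm and 10.4 to 17.1 CPM in the mesenchyme, and the other clusters likewise carried the markers of their names. Markers of neural crest and neurons summed to 542 CPM in the muscle cluster of 129_E9.5, beside 1027 CPM of muscle markers, and to 6.12 and 11.9 CPM in that of B6_E9.5 and B6_E10.5. The endothelial cluster also held megakaryocyte markers at 214 to 1273 CPM and macrophage markers at 19.7 to 691 CPM, both highest in B6_E10.5. Depth was uneven in B6_E9.5, where 27.9% of mesenchymal cells had under 2000 UMIs and 32.2% had 16000 or more. In B6_E10.5 these shares were 10.6% and 1.08%, and in 129_E9.5 they were 2.88% and 1.81%. Barcodes of 1728 of the 43950 cells also occurred in another library.

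Nuclear OXPHOS transcripts made up between 1.62% and 3.10% of UMIs over all classes and libraries. In the mesenchyme they were 2.55%, 2.64% and 2.48% of UMIs. The ectoderm lay close to this, at 2.57%, 2.51% and 2.46%. Muscle progenitors were higher in each library, at 2.75%, 3.10% and 2.84%, and so was the endothelium, at 2.77%, 2.87% and 2.73%. Erythroid cells were lowest, at 2.19%, 1.62% and 1.63%. Haemoglobin alone took 31.9%, 51.3% and 52.1% of erythroid UMIs, and with haemoglobin and mt- UMIs left out of the total the erythroid share was 3.35%, 3.44% and 3.51%, above the 2.64%, 2.75% and 2.55% of the mesenchyme.

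The mt- mRNAs differed more between libraries than the nuclear genes in the mesenchyme. In the mesenchyme they took 3.56%, 3.91% and 2.65% of UMIs, so that each mt- UMI was matched by 0.715, 0.676 and 0.939 nuclear OXPHOS UMIs. The 129_E9.5 library was the highest of the 3 in this ratio in all 5 classes, with 0.915 in the ectoderm, 1.00 in muscle progenitors, 0.945 in the endothelium and 1.19 in erythroid cells. The 2 c57bl6.J libraries lay between 0.661 and 0.747 in the 4 classes other than erythroid cells. In erythroid cells the ratio was 0.773 in B6_E9.5 and 1.16 in B6_E10.5, and the erythroid cells of B6_E9.5 had a median of only 735 UMIs.

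**Figure D1:**
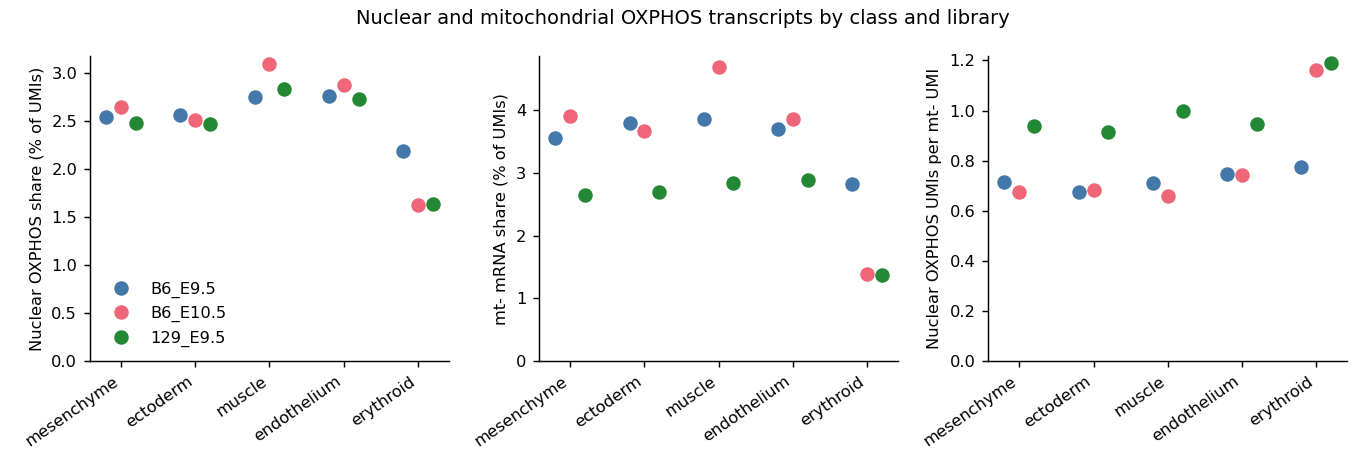
Share of UMIs from the 83 nuclear OXPHOS genes (left), share from the 13 mt- mRNAs (middle) and their ratio (right), by class on the x axis, with 1 point per library. Nuclear shares of the mesenchyme sit between 2.48% and 2.64%, while the ratio of 129_E9.5 is the highest point in every class.

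The ratio of nuclear to mt- UMIs in mesenchyme was 1.31 times as high in 129_E9.5 as in B6_E9.5 (95% interval 1.31 to 1.32, counting error only) and 0.946 times as high in B6_E10.5 (0.944 to 0.948). The stage value turned over with depth: without cells of 16000 UMIs or more it was 1.10, whereas the strain value was then 1.52. In B6_E9.5 mesenchyme the ratio was 0.937 in cells under 2000 UMIs, 0.556 in cells of 4000 to 8000 UMIs and 0.779 in cells of 16000 or more. Over the same bins of 129_E9.5 it stayed between 0.861 and 1.04.

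Within the mesenchyme, cells spread somewhat more in their OXPHOS share than counting alone would give. Cells were thinned to 2000 UMIs, which left out 2697, 1621 and 266 mesenchymal cells. The middle 90% of thinned mesenchymal cells then spanned 1.70% to 3.35%, 1.85% to 3.40% and 1.85% to 3.20%. The variance of the OXPHOS count was 1.96, 1.72 and 1.41 times its mean, where pure counting noise gives about 1. Across these cells, complex I and complex V counts had a Spearman rho of 0.22, 0.21 and 0.10, and nuclear and mt- counts one of -0.21, -0.15 and -0.14. These correlations are weak, the counts share a cell's fixed total, and they describe cells of 1 library each.

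Because a molecule gives 1 UMI whatever its length, CPM can be set side by side between genes without dividing by length, though capture may differ between them. In mesenchyme the mean over the 3 libraries was highest for Cox4i1, the ubiquitous form of the regulatory subunit 4 of complex IV, at 1046 ± 200 CPM (SD, n = 3 libraries). Next came Cox8a, another complex IV subunit, at 893 ± 58.2 CPM, and Atp5b, the catalytic beta subunit of ATP synthase, at 811 ± 231 CPM. The median member stood at 271 CPM. Members below 20 CPM were Ndufa4l2, Cox4i2, Cox7a1, Cox7b2 and Atp5s, 4 of them alternative isoforms. Cox6a2, Cox8b and Cox8c were not among the gene symbols of the matrix.

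Summed over their 39, 17 and 4 members, complexes I and V had the most transcripts in each library and complex II the fewest. The sums depend on the number of genes. In mesenchyme the median member of complex I stood at 176, 192 and 177 CPM and that of complex II at 135, 109 and 99.3 CPM. For complex III it was 346, 306 and 283 CPM, for complex IV 499, 515 and 360 CPM, and for complex V 395, 496 and 480 CPM. Complex I summed to 8189, 8634 and 7738 CPM in the mesenchyme, led by Ndufa4, which was first assigned to complex I and is also found in complex IV (665, 643 and 488 CPM). Complex V summed to 7557, 7913 and 8212 CPM, complex IV to 6476, 6611 and 5747 CPM, and complex III to 2629, 2685 and 2603 CPM. The highest of complex III were the small subunits Uqcrh, with 583, 699 and 593 CPM, and Uqcrb, with 538, 430 and 461 CPM. Uqcr10 read 351, 318 and 281 CPM, and Ndufb8 of complex I, which overlaps Gm20538 on the same strand, read 366, 450 and 438 CPM. Cox4i1 likewise overlaps Gm20388 on its own strand and Emc8 on the other. The 4 complex II genes were lowest, at 606, 587 and 549 CPM. Among them Sdhb, the iron-sulphur subunit, was highest at 249, 278 and 267 CPM, and Sdha, the flavoprotein, stood at 87.1, 90.6 and 104 CPM. The membrane anchors Sdhc and Sdhd read 101, 122 and 94.8 CPM and 169, 96.2 and 83.2 CPM, so that Sdhd stood apart in B6_E9.5.

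The 3 genes for the identical mature c subunit of ATP synthase were not interchangeable in level. In mesenchyme Atp5g1 read 852, 604 and 874 CPM, Atp5g2 815, 828 and 760 CPM, and Atp5g3 449, 317 and 322 CPM. The log2 fold change of Atp5g1 in ectoderm over mesenchyme was -0.46 (edgeR, adjusted p = 0.0586): it was at 532, 610 and 606 CPM, below mesenchyme in the 2 E9.5 libraries only. Atpif1, the inhibitor of ATP synthase, which is no member of the set, read 510, 637 and 460 CPM in mesenchyme, below the 764, 680 and 493 CPM of erythroid cells.

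Promoters of these genes are known targets of the factor NRF1 (nuclear respiratory factor), so the stretch from 250 bases before to 50 bases after the start of each gene in RefSeq (GRCm38.p6) was searched on both strands. A promoter was held for 66 of the 83 members. The letters GCGCATGC (NRF1) were found in 10 of them, or 15.2%, against 5.52% of 11708 genes of the matrix with a promoter. AAGATGGC (YY1) was found in 9, or 13.6%, against 4.65%, and CCGGAAGT (ETS) in 5, or 7.58%, against 8.05%. The core of the hypoxia response element, ACGTG, which was added after the isoform values were seen, was found in 15, or 22.7%, against 28.1%. Cox4i1, Cox4i2 and Ndufa4l2, described further on, had no promoter among the 66, so none of these shares speaks of them. No 2 different motifs overlapped in a member's promoter. A match describes letters in this window and is not evidence of binding.

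The 10 NRF1 matches are shown because NRF1 is the factor best known for this gene set and several of the genes are described further on. Capitals mark the motif or, where it reads as itself on both strands, the joined pair, and each line is written in the direction of the gene.
Atp5g2, chr15:102671072-102671097, minus strand: ctccggccGCGCATGCGCagagcctt
Atp5k, chr5:108434432-108434457, minus strand: tcactgcgGCGCATGCGCctttctgg
Atp5l, chr9:44920967-44920990, minus strand: ccaataacGCATGCGCatttcccc
Cox6a1, chr5:115349103-115349128, minus strand: ggaacgggGCGCATGCGCgctctcgc
Ndufa6, chr15:82354359-82354382, minus strand: gcggtagaGCATGCGCattgcaga
Ndufa8, chr2:36049331-36049354, minus strand: ctggagacGCATGCGCagatggta
Ndufa11, chr17:56717694-56717719, plus strand: tgcactgcGCGCATGCGCgcacgcct
Sdhb, chr4:140961209-140961232, plus strand: cccagtggGCATGCGCcctacggg
Uqcr11, chr10:80406810-80406833, minus strand: gccttcacGCATGCGCtatacgtc
Uqcrc1, chr9:108936670-108936695, plus strand: tccgctctGCGCATGCGCagcgcggc

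The largest differences between classes were in alternative isoforms and lay in the ectoderm. Cox4i2, the subunit 4 isoform known to respond to low oxygen, lies on chromosome 2 (152754173 to 152765037, plus strand, mm10) and read 156, 88.2 and 112 CPM in ectoderm. In mesenchyme it read 6.56, 7.81 and 8.75 CPM, and the other classes lay at 6.98 CPM or less. The ectoderm was the highest class in each of the 3 libraries without overlap, and the log2 fold change over mesenchyme was 3.86 ± 0.23 (SE; edgeR with library as a term, adjusted p = 0.000108, 3 libraries). Its ubiquitous counterpart Cox4i1 read 1075, 1076 and 1289 CPM in ectoderm and 818, 1194 and 1126 CPM in mesenchyme, with a log2 fold change of 0.08 (adjusted p = 0.609).

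Ndufa4l2, a paralogue of Ndufa4 known as a target of hypoxia-inducible factor, followed the same class. It read 42.1, 5.19 and 83.2 CPM in ectoderm and 7.46, 0.584 and 5.82 CPM across the mesenchyme samples. All 3 libraries had more in the ectoderm, although the B6_E10.5 ectoderm lay below the B6_E9.5 mesenchyme, and the log2 fold change was 3.09 ± 0.27 (edgeR, adjusted p = 0.000478). The gene (chromosome 10, 127514967 to 127517154, plus strand) overlaps Shmt2 on the opposite strand, and whether the counting used strand is not stated. Ndufa4 itself had a log2 fold change of -0.11 (adjusted p = 0.364).

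Cox6b2, the alternative form of subunit 6b known from testis, was high in 2 classes. In the ectoderm it read 42.4, 90.5 and 64.1 CPM, in erythroid cells 70.7, 76.7 and 85.7 CPM, and in mesenchyme 10.97, 37.3 and 13.5 CPM. Muscle progenitors read 6.12, 25.9 and 3.78 CPM and the endothelium 4.97, 10.3 and 5.68 CPM. The ectoderm exceeded the mesenchyme of its own library each time (log2 fold change 1.76 ± 0.18, edgeR, adjusted p = 0.000938), and the endothelium fell below it each time (log2 fold change -1.40 ± 0.19, adjusted p = 0.00276). Its ubiquitous counterpart Cox6b1 read 606, 593 and 524 CPM in ectoderm and 637, 636 and 479 CPM in mesenchyme (log2 fold change -0.08, adjusted p = 0.508). No erythroid test was made, because haemoglobin fills that total.

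Stretches of 150 bases before the RefSeq starts of the Cox6b pair are given for the ubiquitous and the alternative gene of a pair whose levels differed between classes. Neither holds any of the 4 motifs above.
Cox6b1, chr7:30626115-30626264, minus strand: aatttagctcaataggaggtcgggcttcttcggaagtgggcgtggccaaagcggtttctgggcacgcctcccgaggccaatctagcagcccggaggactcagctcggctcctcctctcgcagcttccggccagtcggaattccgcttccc
Cox6b2, chr7:4753095-4753244, minus strand: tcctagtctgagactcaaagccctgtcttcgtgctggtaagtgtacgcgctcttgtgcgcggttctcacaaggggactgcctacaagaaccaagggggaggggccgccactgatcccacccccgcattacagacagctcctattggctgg

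The alternative forms of subunits 7a and 7b were close to 0. Cox7a1, the heart and muscle form of subunit 7a, read between 0.465 and 1.94 CPM in mesenchyme, ectoderm, muscle progenitors and endothelium of the 3 libraries, with 0.874, 1.25 and 1.19 CPM in muscle progenitors. Cox7b2 did not pass 0.597 CPM in any class of any library. Their ubiquitous counterparts Cox7a2 and Cox7b read 583, 645 and 502 CPM and 392, 425 and 304 CPM in muscle progenitors.

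**Figure D2:**
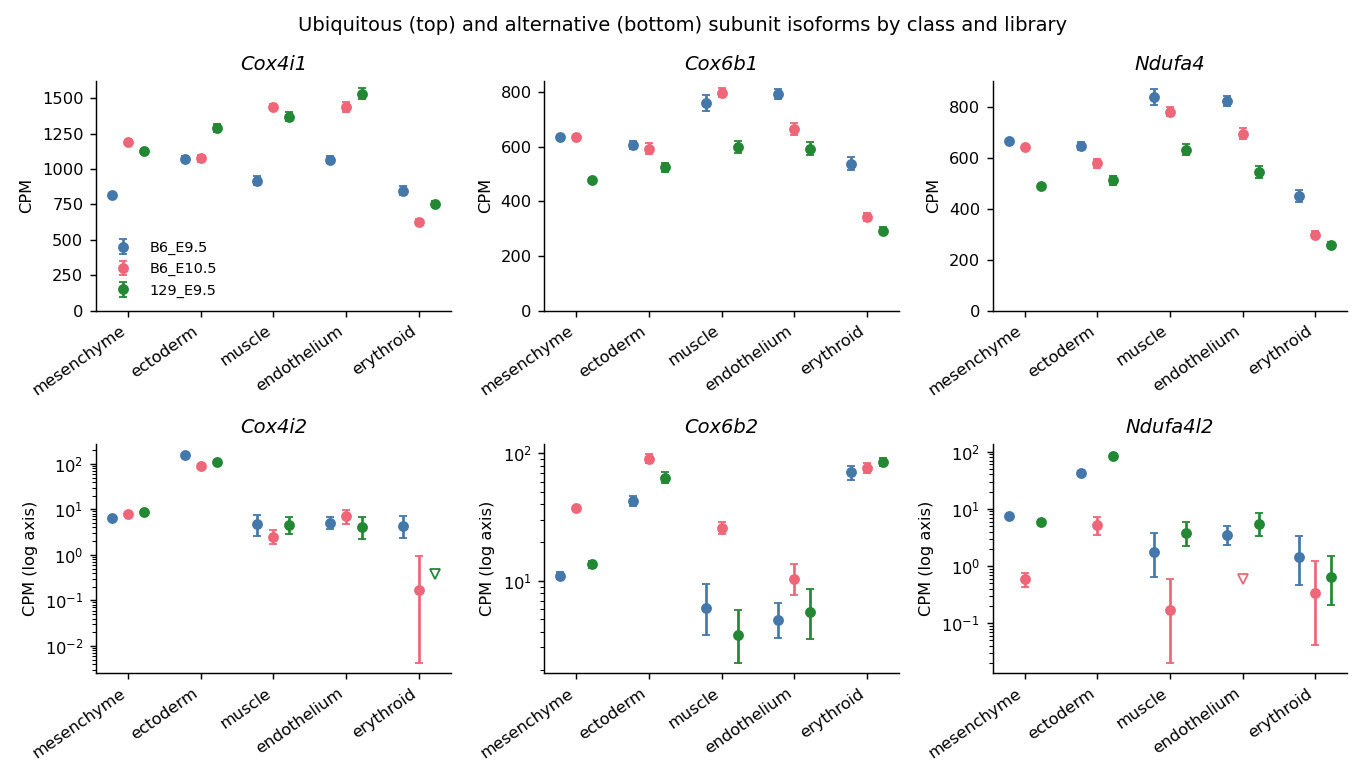
CPM of 3 ubiquitous subunit genes (top, linear axes from 0) and their alternative isoforms (bottom, log axes) by class and library, with exact Poisson 95% intervals; an open triangle marks a count of 0, drawn at the level of 3 UMIs. Cox4i2 and Ndufa4l2 peak in the ectoderm of each library, and Cox6b2 in ectoderm and erythroid cells. Outside erythroid cells Cox4i1 runs from 818 to 1534 CPM, Cox6b1 from 479 to 798 CPM and Ndufa4 from 488 to 840 CPM.

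Cell by cell, the ectodermal signal came from many cells. After thinning to 2000 UMIs, Cox4i2 had a UMI in 25.3% of ectodermal cells of B6_E9.5 (exact Clopper-Pearson 95% interval 22.4% to 28.2%, 887 cells), 13.6% of B6_E10.5 (11.4% to 16.0%, 912 cells) and 20.1% of 129_E9.5 (17.9% to 22.6%, 1157 cells). Without thinning these shares were 62.0%, 31.6% and 37.8% at median depths of 10410, 5731.5 and 4747 UMIs, against 6.13%, 4.32% and 6.34% of mesenchymal cells at 8067, 5422 and 7463 UMIs. Among thinned mesenchymal cells the shares were 1.29%, 1.46% and 1.74%, and among thinned endothelial cells 1.09%, 2.15% and 0.969%. Free RNA in the droplets also gives UMIs, and its part in these low shares was not tested. Of 621 thinned erythroid cells of 129_E9.5, 0 had a UMI, for which the exact interval of the share of cells with a UMI ends at 0.592% and the limit of 3 cells is 0.483%. Shares and intervals cover counting error only.

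The ectodermal cluster holds both surface ectoderm and the apical ridge, whose marker is Fgf8, and this split was chosen after the isoform values were seen. Among thinned cells with an Fgf8 UMI, Cox4i2 was detected in 30.2% (25.04% to 35.8%, 298 cells) of B6_E9.5, 30.6% (24.5% to 37.2%, 216 cells) of B6_E10.5 and 27.3% (23.2% to 31.7%, 440 cells) of 129_E9.5. In cells without one it was detected in 22.8% (19.4% to 26.4%), 8.33% (6.39% to 10.6%) and 15.8% (13.2% to 18.6%). The Fgf8 cells were thus higher in each library, though in B6_E9.5 their interval overlapped that of the other cells. Shares of the Fgf8 cells lay within each other's intervals across stage and strain, while the other cells spread more widely. After thinning, a ridge cell can lack an Fgf8 UMI, so the other cells may include ridge cells. For Ndufa4l2 the shares with and without Fgf8 were 9.40% and 7.98% in B6_E9.5, 4.17% and 0.862% in B6_E10.5, and 23.6% and 9.07% in 129_E9.5. For Cox6b2 they were 9.26% and 19.3% in B6_E10.5, the reverse order, against 8.72% and 8.15% in B6_E9.5 and 13.2% and 13.5% in 129_E9.5. Cells with a UMI of the ventral gene En1 read 27.8%, 11.4% and 21.8% for Cox4i2, against the 24.7%, 14.0% and 19.8% of cells without one. With a UMI of the dorsal gene Wnt7a the shares were 17.5%, 11.3% and 12.0% (80, 53 and 100 cells), and without one 26.0%, 13.7% and 20.9%. Cells of a library are not replicates, so none of these splits carries a test.

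**Figure D3:**
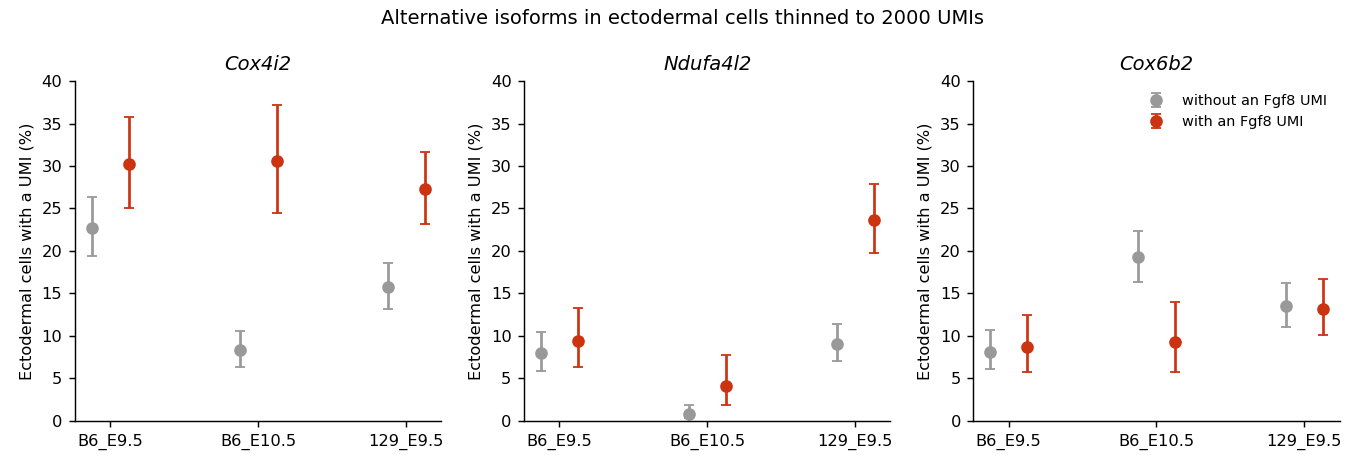
Share of ectodermal cells with a UMI of Cox4i2, Ndufa4l2 or Cox6b2 (y axis, percent) by library, for cells with (red) and without (grey) an Fgf8 UMI, all thinned to 2000 UMIs; bars are exact 95% intervals of counting error. Cox4i2 is at 27.3% to 30.6% in Fgf8 cells of each library and at 8.33% to 22.8% in the others.

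For the 82 members that passed the edgeR filter on low counts, the ectoderm was otherwise close to the mesenchyme. The test called 6 members higher and 8 lower, whereas 16.8% of all 13484 genes tested were called higher and 15.6% lower. The median log2 fold change of the members was -0.10, against -0.04 over all genes. Beside the 3 isoforms, the higher members were Cox7a2l (log2 fold change 0.59 ± 0.09, edgeR, adjusted p = 0.00374) and the complex I subunits Ndufa11 (0.48) and Ndufs6 (0.29). Cox7a2l read 422, 627 and 708 CPM in ectoderm against 268, 440 and 411 CPM.

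The 8 lower members differed by small amounts, between -0.38 and -0.28 on the log2 scale. They were Atp5g3, Cox7a2, Ndufb6, Ndufab1 (the mitochondrial acyl carrier protein), Ndufv3, Ndufs7, Cox5a and Cox7c. The 3 libraries served as blocks in this test and differ in stage and strain. Without B6_E9.5 the test called 0 members lower, beside 1050 of 13127 genes. Without 129_E9.5 it called 0 lower, beside 605 of 13354 genes. Cox4i2, Ndufa4l2 and Cox6b2 were called in each fit without 1 library, and the other 3 higher members were not. Of other mitochondrial lists, 26 of 77 mitochondrial ribosomal protein genes and 9 of 24 import genes were lower in ectoderm and 0 higher. Over all genes tested, 16.8% were called higher and 15.6% lower. Of 11 citrate cycle genes 1 was lower and 0 higher, of 12 biogenesis regulators 1 was higher and 1 lower, and of the 13 mt- mRNAs 0 were called. Outside mitochondria, 7 of 16 glycolysis genes were higher and 0 lower.

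In muscle progenitors edgeR called 0 of 82 members higher and 0 lower, where 1.91% and 2.15% of 13280 genes were called. At an unadjusted p under 0.05 there were 19 higher and 3 lower, a threshold at which all genes were not counted. DESeq2 called 12 higher and 2 lower at an adjusted p under 0.05, beside 565 and 472 of all 13280 genes. Even so 55 of the 82 members read higher than mesenchyme in 3 of 3 libraries, against 18.0% of all genes tested, and their median log2 fold change was 0.13 against -0.01. The mt- mRNAs were also higher in 3 of 3 libraries for 12 of 13. Cox8a read 1146, 1515 and 1188 CPM against 954, 888 and 838 CPM in mesenchyme (log2 fold change 0.50 ± 0.15, adjusted p = 0.147). Uqcr11, a small subunit of complex III, read 463, 510 and 361 CPM against 358, 324 and 256 CPM (0.50 ± 0.11, adjusted p = 0.0781). Uqcrq, another, had 0.38 ± 0.12 (adjusted p = 0.176). The members lower in each library were Ndufa4l2, Cox4i2, Cox6b2, Atp5g2 and Ndufa7. Neural crest and neuron markers summed to 6.12, 11.9 and 542 CPM in muscle progenitors and endothelial markers to 167, 2.43 and 78.2 CPM; their part in the result was not tested. Without 129_E9.5, edgeR likewise called 0 members higher and 0 lower, beside 58 and 82 of 13157 genes. The members at an unadjusted p under 0.05 were then 5 and 3, again without a count of all genes.

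The endothelium had the most calls. Of 82 members 18 were higher than in mesenchyme and 2 lower, where 21.2% of 13345 genes were called higher and 21.9% lower. The higher share of the members is near that background and the lower share is below it, and the median log2 fold change was 0.14 against -0.08 over all genes. Ndufa8, a complex I subunit of the intermembrane space (chromosome 2, 36036326 to 36049406, minus strand), stood out with 342, 299 and 323 CPM in endothelium against 143, 152 and 156 CPM in mesenchyme. No other class passed 201 CPM in any library, and the log2 fold change was 1.13 ± 0.09 (adjusted p = 0.000339). In this cluster macrophage markers read 35.4, 691 and 19.7 CPM and megakaryocyte markers 214, 1273 and 264 CPM; their part in the differences was not tested.

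The other higher members included both core and accessory subunits. Ndufs8, an iron-sulphur subunit of complex I, read 136, 193 and 171 CPM in endothelium and 91.3, 143 and 121 CPM in mesenchyme (log2 fold change 0.54 ± 0.08, adjusted p = 0.00388). Ndufa9, Sdha, Uqcrc1 and Cox4i1 had log2 fold changes of 0.57, 0.50, 0.42 and 0.40, and Atp5b 0.39. By complex, the higher calls were 7 of 39 for complex I, 1 of 4 for complex II, 1 of 8 for complex III, 5 of 14 for complex IV and 4 of 17 for complex V. The lower members were Cox6b2 and Ndufa7, which read 274, 313 and 243 CPM in endothelium against 386, 421 and 311 CPM (log2 fold change -0.39 ± 0.07, adjusted p = 0.00874). Ndufa8, Ndufs8 and Cox6b2 were called in each fit without 1 library. Without B6_E9.5 there were 2 higher and 1 lower calls, beside 1952 and 1499 of 13046 genes, and without 129_E9.5 there were 4 and 1, beside 1764 and 1249 of 13209 genes.

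**Figure D4:**
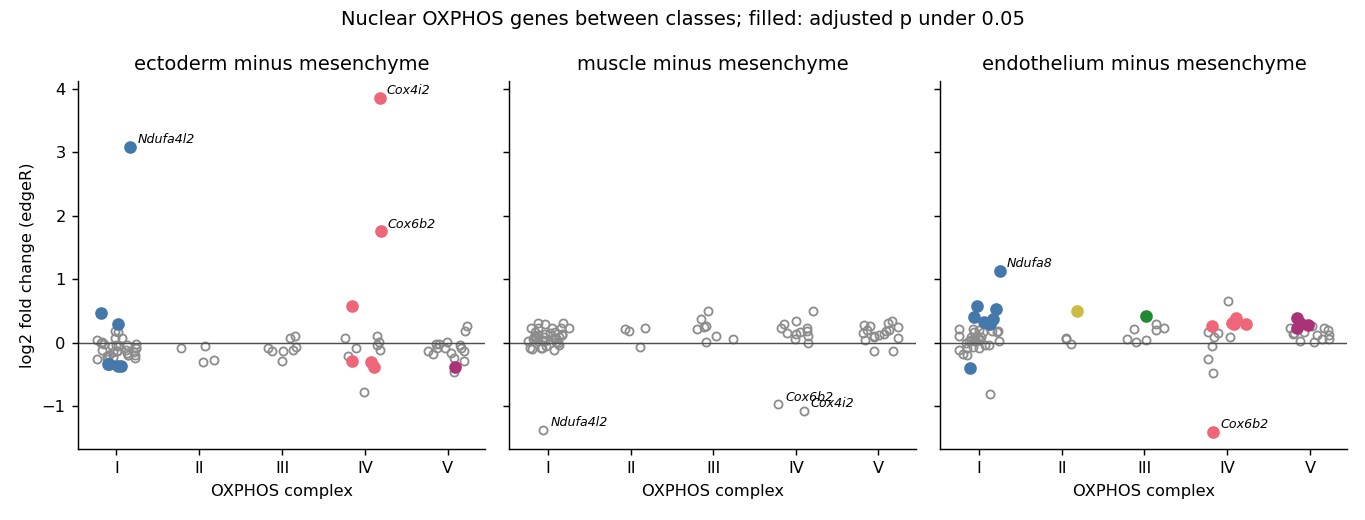
Log2 fold change of each tested member over mesenchyme (y axis, edgeR) by complex (x axis), for ectoderm, muscle progenitors and endothelium; filled points have an adjusted p under 0.05. Most members lie within 0.5 of 0, and Cox4i2, Ndufa4l2 and Cox6b2 in ectoderm and Ndufa8 in endothelium stand apart.

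From E9.5 to E10.5 in c57bl6.J mesenchyme the summed nuclear OXPHOS CPM differed little, with a ratio of 1.04 (95% interval 1.04 to 1.04, counting error only). Of 83 members 78 had at least 20 UMIs in the pair and 10 CPM in the higher library. A member was counted when its CPM ratio reached 1.5-fold with an interval that excluded 1. There were 7 members higher at E10.5, beside 15.9% of 8040 genes, and 4 lower, beside 8.91%; both member shares were below that background. With TMM scaling, which shifts all log2 ratios of this comparison by -0.15, these counts were 1 and 8. Over all genes the same shift turned 1276 higher and 716 lower into 885 and 1179.

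Cox6b2 rose most with stage, from 10.97 to 37.3 CPM, a ratio of 3.40 (3.18 to 3.65). Its rise was seen in 4 of 4 classes, from 42.4 to 90.5 CPM in ectoderm, 6.12 to 25.9 CPM in muscle progenitors and 4.97 to 10.3 CPM in endothelium. Haemoglobin, a mark of erythroid RNA, took 0.133% of mesenchymal UMIs at E9.5 and 0.0302% at E10.5, and its part in the result was not tested. The other 6 higher members had ratios of 1.51 to 1.65: Ndufv1, which carries the NADH site of complex I, Cox7a2l, Ndufs8, Uqcrc1, Ndufb5 and Ndufa10. The lower members were Ndufb1-ps with 0.470 (200 to 93.9 CPM), Sdhd with 0.568, Atp5k with 0.637 and Ndufa1 with 0.642. GENCODE M21 lists Ndufb1-ps as a noncoding RNA of the bidirectional promoter class, overlapping Cpsf2 on the opposite strand, so that its reads may be uncertain.

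In ectoderm 2 members were higher at E10.5 and 4 lower, beside 9.85% and 5.97% of all genes. The lower members included both hypoxia-linked isoforms: Ndufa4l2 fell from 42.1 to 5.19 CPM (ratio 0.123) and Cox4i2 from 156 to 88.2 CPM (ratio 0.567). In thinned cells with an Fgf8 UMI, Cox4i2 was detected in 30.2% at E9.5 and 30.6% at E10.5. Without one the shares were 22.8% and 8.33%. For Ndufa4l2 they went from 9.40% to 4.17% with Fgf8 and from 7.98% to 0.862% without. Fgf8 cells were 298 of 887 at E9.5 and 216 of 912 at E10.5, and the part of this make-up in the falls was not tested. In muscle progenitors 10 were higher and 3 lower, beside 10.4% and 13.8%, and the members' median log2 ratio was 0.15 where that of all genes was -0.06. Among the 10 were Cox6b2, Cox4i1 (919 to 1441 CPM), Uqcrc1, Ndufs3, Ndufs8, Ndufa10, Ndufb7, Atp5a1 and Atp5o. In endothelium 6 were higher and 4 lower, beside 15.1% and 10.6%. The 11 members past the fold in mesenchyme kept their direction in each of the other 3 classes.

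By strain, members went in both directions in numbers near the background of all genes. In mesenchyme 14 were higher in 129_E9.5, beside 12.9% of 7750 genes, and 12 were lower, beside 12.1%, while the summed CPM ratio was only 0.976 (0.974 to 0.978). The log2 ratios of the members had an interquartile range of 0.78, against 0.69 over all genes. Among the higher members, Ndufa9, an accessory subunit of complex I, went from 54.9 to 112 CPM (ratio 2.04), Uqcrc1, a core protein of complex III, from 143 to 287 CPM (2.01), Ndufv1 from 69.9 to 130 CPM (1.86) and Atp5b from 611 to 1063 CPM (1.74). Uqcrc2, Ndufa10, Ndufs3, Atp5a1, Atp5c1, Atp5o, Atp5f1, Ndufb5 and Cox7a2l were among the others, with ratios of 1.53 to 1.75.

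Among the lower members, Ndufa1, an accessory subunit of complex I, went from 85.5 to 27.2 CPM (ratio 0.318), Ndufa3 from 140 to 54.5 CPM (0.390), Ndufb1-ps from 200 to 81.2 CPM (0.407), Atp5e, the epsilon subunit of ATP synthase, from 361 to 164 CPM (0.453) and Sdhd from 169 to 83.2 CPM (0.492). Ndufb3, Cox7c, Ndufb4, Atp5j2, Ndufa5, Atp5k and Cox6c had ratios of 0.583 to 0.654. Ndufa3 overlaps Tfpt and Ndufa9 overlaps 1700018A23Rik, both on the opposite strand. All 26 kept their direction in ectoderm, muscle progenitors and endothelium. The counts there were 4 higher and 7 lower in ectoderm, beside 10.3% and 10.9% of all genes, 12 and 9 in muscle progenitors, beside 13.7% and 16.0%, and 9 and 12 in endothelium, beside 13.2% and 11.0%.

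The 4 members lower at E10.5 were also lower in 129_E9.5, and Uqcrc1, Ndufv1, Ndufa10, Ndufb5 and Cox7a2l were higher in both; both comparisons divide by the same B6_E9.5 library. Their mesenchymal values were 85.5, 54.9 and 27.2 CPM for Ndufa1, 200, 93.9 and 81.2 CPM for Ndufb1-ps, 169, 96.2 and 83.2 CPM for Sdhd and 235, 149 and 151 CPM for Atp5k. For Uqcrc1 they were 143, 220 and 287 CPM and for Ndufv1 69.9, 116 and 130 CPM. That B6_E9.5 is the extreme library for these genes follows from how they were picked.

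The strain ratio moved with transcript length, a pattern noticed after the values were seen. Lengths are those of the principal transcripts of GENCODE M21. The median log2 strain ratio in mesenchyme was -0.32 for 22 members under 600 nt, -0.29 for 27 members of 600 to 1000 nt, 0.61 for 21 members of 1000 to 2000 nt and 0.12 for 8 longer ones. Over all genes tested, members included, the medians in these bins were -0.48 (113 genes), 0.015 (482 genes), 0.27 (1791 genes) and -0.04 (5363 genes). Short genes as a whole were therefore lower and genes of 1000 to 2000 nt higher in 129_E9.5, as the members were, and the part of transcript length in the strain result was not tested. Across members, length and strain ratio had a Spearman rho of 0.49 (n = 78, all from the same 2 libraries), whereas over all 7749 genes with a length it was -0.27. For the stage ratio rho was 0.31 over members and -0.05 over 8039 genes, with members' bin medians of -0.01, -0.02, 0.35 and 0.06.

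**Figure D5:**
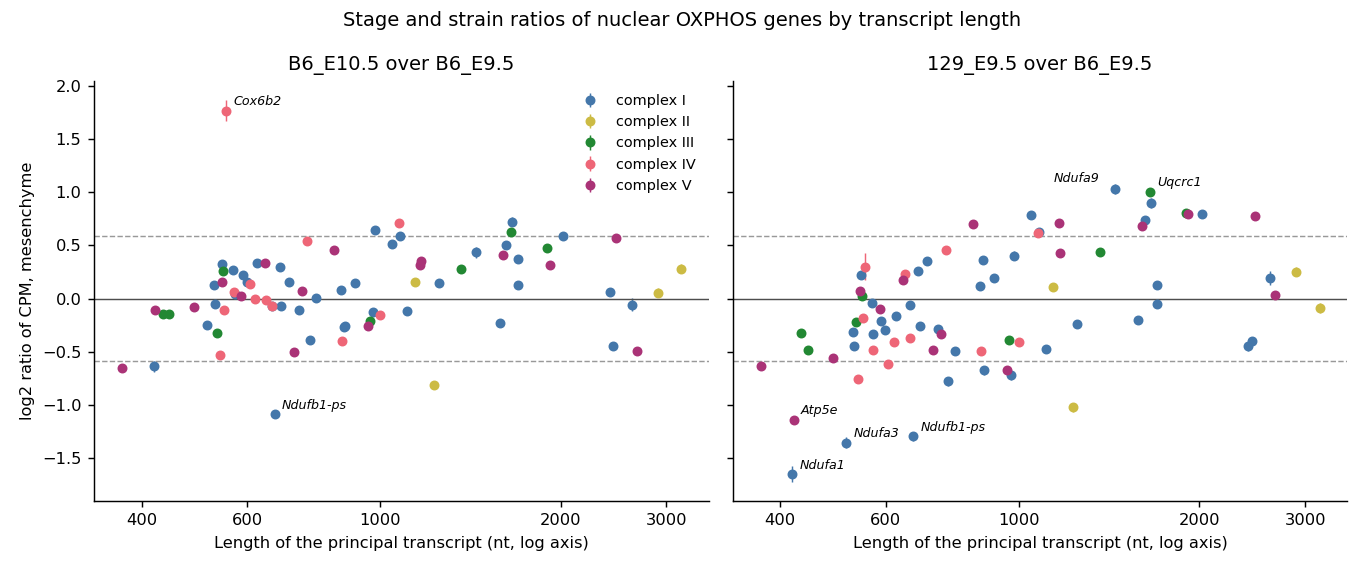
Log2 CPM ratio in mesenchyme (y axis) of the 78 tested members against the length of their principal transcript (x axis, log scale), for stage (left) and strain (right), coloured by complex; bars are 95% intervals of counting error and dashed lines mark 1.5-fold. On the right, short members lie mostly below 0 (median -0.32 under 600 nt) and those of 1000 to 2000 nt mostly above (median 0.61).

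The mt- mRNAs were lower in 129_E9.5 mesenchyme for 13 of 13, with a median log2 ratio of -0.67. Of these, 7 were past the fold, beside 12.1% of all genes. They did not move as a block. mt-Nd6, the subunit encoded on the other strand of the mitochondrial genome, went from 48.1 to 8.98 CPM (ratio 0.187), mt-Nd4l from 86.5 to 25.3 CPM (0.293) and mt-Nd1 from 5637 to 3535 CPM (0.627). Among the complex IV core subunits, mt-Co1 had a ratio of 0.684, mt-Co2 0.847 and mt-Co3 0.987, the last from 5992 to 5914 CPM. By stage, mt-Nd6 had a ratio of 0.193 and mt-Nd4l 0.390, while mt-Co3 went from 5992 to 8559 CPM (1.43), short of the fold.

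Other energy pathways are given beside the members for the same mesenchyme. Over all genes tested there, 12.9% were higher and 12.1% lower past the fold in 129_E9.5. At E10.5 these shares were 15.9% and 8.91%. Of 11 citrate cycle genes 4 were higher and 0 lower in 129_E9.5, and 0 and 0 at E10.5. Of the glycolysis genes tested, 4 of 13 were higher and 0 lower in 129_E9.5, whereas 2 of 14 were higher and 6 lower at E10.5, where their summed CPM went from 8515 to 5894. Of 77 mitochondrial ribosomal protein genes 5 were higher and 6 lower in 129_E9.5, and 0 and 5 at E10.5. Import genes counted 0 higher and 4 lower of 24 by strain, and 1 and 9 by stage.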

How the data were processed

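Raw UMI counts per gene and cell were used as the authors deposited them, with no normalization, in 1 matrix for 3 libraries, together with a deposited table of each cell's stage, strain and cluster number. Cell Ranger 3 and the build mm10 come from the submitters' processing notes; annotation, strand setting and cell filters are not given in the sources used here. Symbols were matched by gene identifier for 15119 of 15122 genes. Members, gene lists and tests were chosen with earlier results of these data known.

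UMIs of each library and cluster were added up, and CPM is a gene's sum over the sum of all genes there. Intervals are exact Poisson (CPM), conditional binomial (ratios) and Clopper-Pearson (shares) at 95%, and cover counting error only; the limit for a count of 0 is 3 UMIs or 3 cells. The interval of the nuclear to mt- ratio used the log-scale standard error of the counts. A class of a library held 285 to 15325 cells.

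Classes were compared with mesenchyme by the edgeR 4.0.16 quasi-likelihood test on summed counts with library as a term, Benjamini-Hochberg adjusted over all genes tested. P-values speak of how constant a class difference was over 3 libraries that differ in stage and strain. The counts of different clusters come from the same captures. Stage and strain had no test. The test and the interval were tested on simulated data with known changes. These data had counting noise only for the interval and a fixed extra spread for the test. Simulated libraries differed in their totals only, so differences between libraries were not covered. Alternatives were DESeq2 1.42.0, TMM, other filters on genes and cells, a 2-fold threshold, no library term and leaving out each library. Doublets were not called; cells of 16000 UMIs or more were left out as an alternative.

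Named members are the 3 with most UMIs of each complex, Sdha to Sdhd, Atp5g1 to Atp5g3, the isoform list, Atpif1 and the 3 highest and lowest of each comparison. Others named were called, passed the fold or were chosen after their values were seen. Thinning drew 2000 UMIs per cell without replacement. Python 3.11.15, scipy 1.17.1 and R 4.3.3 were used. Results that need 1 further gene are not reported here.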

Additional observations from a re-analysis of the deposited data

Results flagged for a closer look

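Cox6b2 moved in opposite directions in 2 classes under the same contrast. It was higher than mesenchyme in the ectoderm of 3 of 3 libraries, with a log2 fold change of 1.76, and lower in the endothelium of 3 of 3 libraries, with -1.40. The difference between these 2 contrasts was not tested itself.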

How the results depend on the processing

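The summed nuclear OXPHOS CPM in mesenchyme had a stage ratio of 1.04 and a strain ratio of 0.976. They were 1.04 and 0.980 with cells of at least 2000 UMIs, 1.07 and 1.00 without cells of 16000 UMIs or more (the strain ratio passing just above 1, at 1.003), 1.04 and 0.970 with at most 5% mitochondrial UMIs, 1.04 and 0.966 with mt- and haemoglobin UMIs left out, and 0.934 and 0.959 with TMM scaling. TMM also turned the endothelial stage ratio to 0.989. The ratio of nuclear to mt- UMIs in mesenchyme, 0.946 by stage and 1.31 by strain, was 0.950 and 1.32 with cells of at least 2000 UMIs, 1.10 and 1.52 without cells of 16000 UMIs or more, and 0.962 and 1.20 with at most 5% mitochondrial UMIs. In muscle progenitors the stage value was 1.13 without cells of 16000 UMIs or more. The cause of these reversals was not tested.

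At 2-fold, the members higher and lower by stage numbered 1 and 1 in mesenchyme, 1 and 1 in ectoderm, 1 and 0 in muscle progenitors and 2 and 0 in endothelium. By strain they numbered 2 and 5, 0 and 3, 2 and 4, and 1 and 5. All genes were not counted at 2-fold. With TMM, 1 was higher and 8 lower by stage in mesenchyme, beside 885 and 1179 of all genes. In ectoderm they were 1 and 4 (all genes 730 and 566), in muscle progenitors 12 and 2 (945 and 950). In endothelium they were 2 and 4 (1095 and 1155). By strain, TMM gave 14 and 12 in mesenchyme (912 and 1024) and 2 and 8 in ectoderm (761 and 968). Muscle progenitors had 15 and 9 (1180 and 1218) and endothelium 6 and 16 (828 and 1119). Without the library term edgeR called 1 higher and 0 lower in ectoderm, beside 1178 and 581 of 13013 genes. In endothelium it called 1 and 0, beside 1810 and 1164 of 12834 genes. With the term, all genes counted 2268 and 2101 in ectoderm and 2831 and 2927 in endothelium. DESeq2 called 12 and 2 in muscle progenitors, beside 565 and 472 of 13280 genes. Leaving out each library gave 3 to 6 higher and 0 to 12 lower in ectoderm, 0 to 4 and 0 to 1 in muscle progenitors (4 and 1 without B6_E10.5), and 2 to 19 and 1 to 3 in endothelium. Over all genes these fits called 1082 to 2732 higher and 605 to 2605 lower in ectoderm. The all-gene calls were 58 to 778 and 82 to 687 in muscle progenitors, and 1764 to 3030 and 1249 to 2892 in endothelium. Fits without a library have 2 left and fewer degrees of freedom. No paired analysis beyond the library term was possible because each library is the only sample of its group.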
